A study of Mus musculus with 35 samples.

Results

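Neural cells and microglia sorted from the embryonic mouse brain were compared directly in bulk RNA sequencing, over 6 of the 12 bulk libraries and of the 35 samples of the series: 3 libraries of neural cells and 3 of microglia. The members were taken by their labelled cell type. All came from brains at E14.5, and each library is named by its population and a number that both populations share (Mi-340, Mi-343 and Mi-346 in microglia, with N in place of Mi for neural cells), the order in which values are given. The bulk labels give no genotype, and the design of the series names wild-type and *Mof* knockout brains, while the study describes the brains used for bulk sequencing as wild type and the populations as collected at the same time. Libraries of the same number are therefore taken to come from the same brain, although no source used here says what the number stands for. The neural cells were the cells left after everything positive for CD45, CD41, CD11b, PECAM1, CD102 or PDGFRβ had been set aside, so they are a mixture of stem cells, progenitors and young neurons defined by exclusion. The microglia were sorted as CD45 medium and CD11b+, without PECAM1 or PDGFRβ.

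The library preparation differed between the sides. Neural RNA was extracted with a Qiagen mini kit and made into Illumina TruSeq libraries, while microglial RNA was extracted with the miRNeasy Micro kit and amplified with SMART-Seq v4 before Nextera XT tagmentation. In the bulk data the kit and the cell type cannot be told apart. Findings were therefore set, where a gene could be tested there, against wild-type single cells of the same stage, made on both sides with mCEL-Seq2, a plate method that counts individual transcript molecules from the 3′ end. There, 123 cells of the gate negative for all markers (of 197 wells) and 128 cells of the microglia gate (of 134 wells) had more than 1500 transcripts. They were summed per gate within each of 3 plates. The deposited annotation of the wells gives the single-cell microglia gate as CD45 medium and CD41 positive and does not mention CD11b, whereas the study describes a selection on CD11b and CD45.

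Neural stem cells of this stage, called radial glia, divide along the ventricle and give rise to intermediate progenitors and to excitatory neurons in the cortex, and to GABAergic interneurons in the ventral forebrain. Microglia are the resident macrophages of the brain. They descend from the yolk sac, depend on the CSF1 receptor and on the transcription factor PU.1, and take up dead cells and debris.

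The libraries on the neural side held 18900569, 45102322 and 98414914 reads on genes and those of microglia 29619163, 27227000 and 24464777. The neural libraries were alike (Pearson 0.993 to 0.996 between log2 levels across genes), and the microglial ones differed more (0.894 to 0.920). Mi-346 stood apart from the other microglial libraries in several lists: its summed level was 11156 in markers of monocytes and neutrophils (3769 and 3214 in the others), 27558 in genes linked to interferon (16075 and 14271) and 713450 in immediate early genes (1004150 and 977323). Mitochondrial protein-coding genes held 1.33 to 1.42% of reads in neural libraries and 9.40 to 15.5% in microglia, and the 10 most abundant genes held 3.34 to 3.48% and 15.9 to 24.5%. Among the single cells, the median depth was 7717 transcripts in the neural gate and 10761 in the microglia gate, and plate 3 held 14 and 6 cells. The gates sat in different sequencing libraries on plates 1 and 2 and in the same one on plate 3. All 11 wild-type single-cell libraries share the same 192 cell barcodes, a fixed set that is read together with the library. Because bulk levels were scaled per library, fewer cells of a type and less RNA per cell cannot be told apart.

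Of 18679 genes tested in bulk, 5649 (30.2%) were higher in neural cells and 5132 (27.5%) were higher in microglia, at an adjusted p under 0.05 in limma and a difference over 2-fold. Over 10-fold, the counts were 3351 (17.9%) and 2762 (14.8%). Every neural library lay above every microglial one in 42.5% of tested genes, and the reverse held in 38.9%. Libraries that do not overlap are therefore common here and set no gene apart. In the single-cell sums 6202 genes could be tested, of which 1343 (21.7%) were higher in the neural gate and 1326 (21.4%) in the microglia gate by edgeR. All log2 differences below are neural minus microglia, so a negative value is higher in microglia. Bulk differences are on the scale of log2(normalized count + 1), which understates the change of low genes, with a standard error (SE) from 1 fit over all 12 bulk libraries, so that the spread of a gene among mural and endothelial libraries also enters it. A gene can pass the single-cell filter on low counts through the gate where it is high, so counts and shares over the genes tested in single cells are descriptions. Genes given here with a bulk value alone have no single-cell value shown, in some cases because they were too low there to be tested.

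Across the 6076 genes tested in both, the bulk and single-cell differences correlated with a Pearson r of 0.881 and a Spearman rank coefficient of 0.795, as a description over genes, which are not independent replicates. Of 1775 genes called higher in neural cells in bulk, 1107 (62.4%) were called the same way in single cells, 14 the other way and 654 not at all. Of 1669 genes called higher in microglia in bulk, 984 (59.0%) were called the same way, 11 the other way and 674 not at all. As a description over genes that passed the single-cell filter, which genes with a very large difference pass through 1 gate, the outcomes went with the size of the bulk difference. Between 2 and 4-fold in bulk, 30.7% of neural and 34.5% of microglial calls were called the same way in single cells, while above 64-fold 96.3% and 94.7% were.

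**Figure D1:**
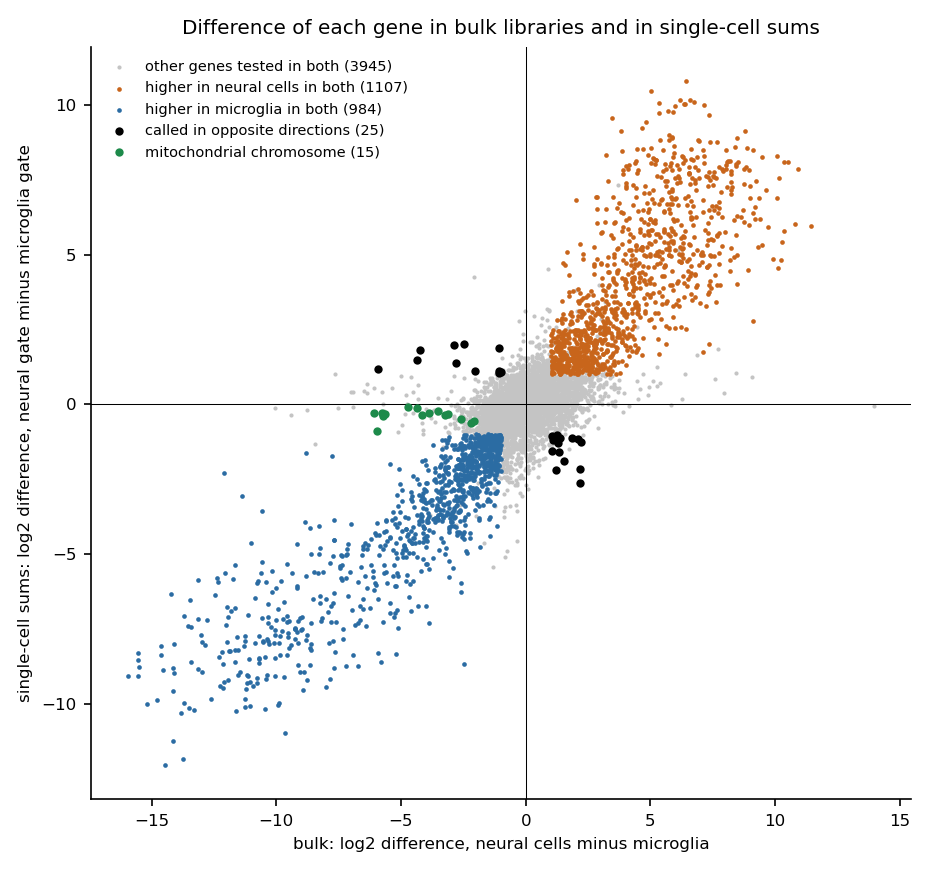
Bulk log2 difference (horizontal) against single-cell log2 difference (vertical), both neural minus microglia, 1 point per gene tested in both data types. The 1107 and 984 genes called the same way fill the upper right and lower left, the 25 genes called in opposite directions (black) lie upper left and lower right, and the genes of the mitochondrial chromosome lie left of 0 in bulk with the deposited scaling and close to 0 in single cells.

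Among genes called over 10-fold in bulk, with libraries that did not overlap and with the same call in single cells, *Sez6* (ENSMUSG00000000632, chr11:77930800-77979048 in mm10), a neuronal membrane protein of dendrites, had the largest difference toward neural cells. Its normalized counts were 9676, 10000.4 and 11148 in the neural libraries and 0, 3.56 and 10.1 in microglia, which differed by 11.44 ± 0.95 on the log2 scale (adjusted p = 1.80e-06, limma). *Gad1*, which makes the transmitter GABA, followed with 4099.7, 4375 and 4232 against 0, 1.19 and 3.78 (log2 difference 10.92 ± 1.97). Every neural library lay far above every microglial one for both genes. *Reln*, the secreted guide of migrating neurons, stood at 7218, 5788 and 8461 against 3.57, 0 and 12.6, and the long noncoding RNA *Miat* at 56522, 52489.6 and 47790.2 against 5.94, 48.6 and 136. *Miat* was seen in 76 of 123 cells of the neural gate and 1 of 128 cells of the microglia gate. The other leading genes were *Tmem35a*, *Mark1*, *Rnf182*, *Fbxl16*, *Lhx6*, *Mcf2l*, *Islr2*, *Gpc1*, *Itgb8*, *St18* and *Dbx1*, with bulk log2 differences from 9.62 to 10.37. *Lhx6* specifies interneurons of the medial ganglionic eminence, and *Dbx1* marks progenitors at borders of the neural tube and forebrain. *Dbx1* was seen in 8 of 123 cells of the neural gate and in none of the microglia gate, and its single-cell call was lost by DESeq2 (6.66, adjusted p = 0.129).

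Toward microglia the differences were larger. *Ctss* (ENSMUSG00000038642, chr3:95526786-95556403), a lysosomal protease of macrophages, had no read in any neural library and 56095, 58070.0 and 74613 in microglia, at least 29222-fold higher against a floor of 3 reads per library. *Csf1r*, the receptor on which microglia depend, stood at 0, 0.554 and 0 in neural libraries and 49197, 58040.3 and 61790.5 in microglia (log2 difference -15.56 ± 0.94; adjusted p = 1.56e-07, limma). *C1qb* (chr4:136880129-136886187), a chain of the first complement component, stood at 0, 0.554 and 0.528 against 61822, 61671 and 68854. In none of these did the libraries come near each other. *C1qc* (chr4:136889804-136893065) was at least 21650-fold higher in bulk and the chemokine *Ccl4* at least 17741-fold, both with no neural read. In single cells the log2 differences were smaller, -9.07 for *Ctss*, -8.28 for *Csf1r*, -8.51 for *C1qb*, -8.75 for *C1qc* and -9.99 for *Ccl4*. In that order they were seen in 6, 6, 10, 5 and 1 of 123 cells of the neural gate. The fitted log2 difference of genes with no read on one side depends on the added count and is not a bound. *Fcrls*, *P2ry12*, *Fcgr3*, *Cx3cr1*, *Mpeg1*, *Bin2*, *Ccl3*, *C3ar1* and *Ighm* were also among the leading 15. *Ighm*, the immunoglobulin heavy chain of B cells, had no neural read and 23642, 19185 and 13122 in microglia, and was seen in 96 of 128 cells of the microglia gate and 0 of 123 of the neural gate.

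Genes wholly silent on the opposite side were unevenly shared. With 162417805 neural reads in all, 62 genes had none while standing at 1000 or more in each microglial library (37 of them had a single-cell test). They included the receptors *Trem2*, *Siglech* and *Gpr34*, the adaptor *Tyrobp* and the guanine nucleotide exchange factor *Vav1*. The reverse held for 6 genes over 81310940 microglial reads: *Gm42418*, *Cacng7*, *Nynrin*, *Nectin1*, *Rnf182* and *Gfra1*. *Gm42418* stood at 16359, 13408 and 18781 in neural libraries and at 0 in microglia, at least 4454-fold, yet in single cells it was seen in 123 of 123 and 127 of 128 cells with a log2 difference of -0.058 ± 0.44 (edgeR adjusted p = 0.928). *Rnf182*, the other one with a single-cell test, was called higher in the neural gate.

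**Figure D2:**
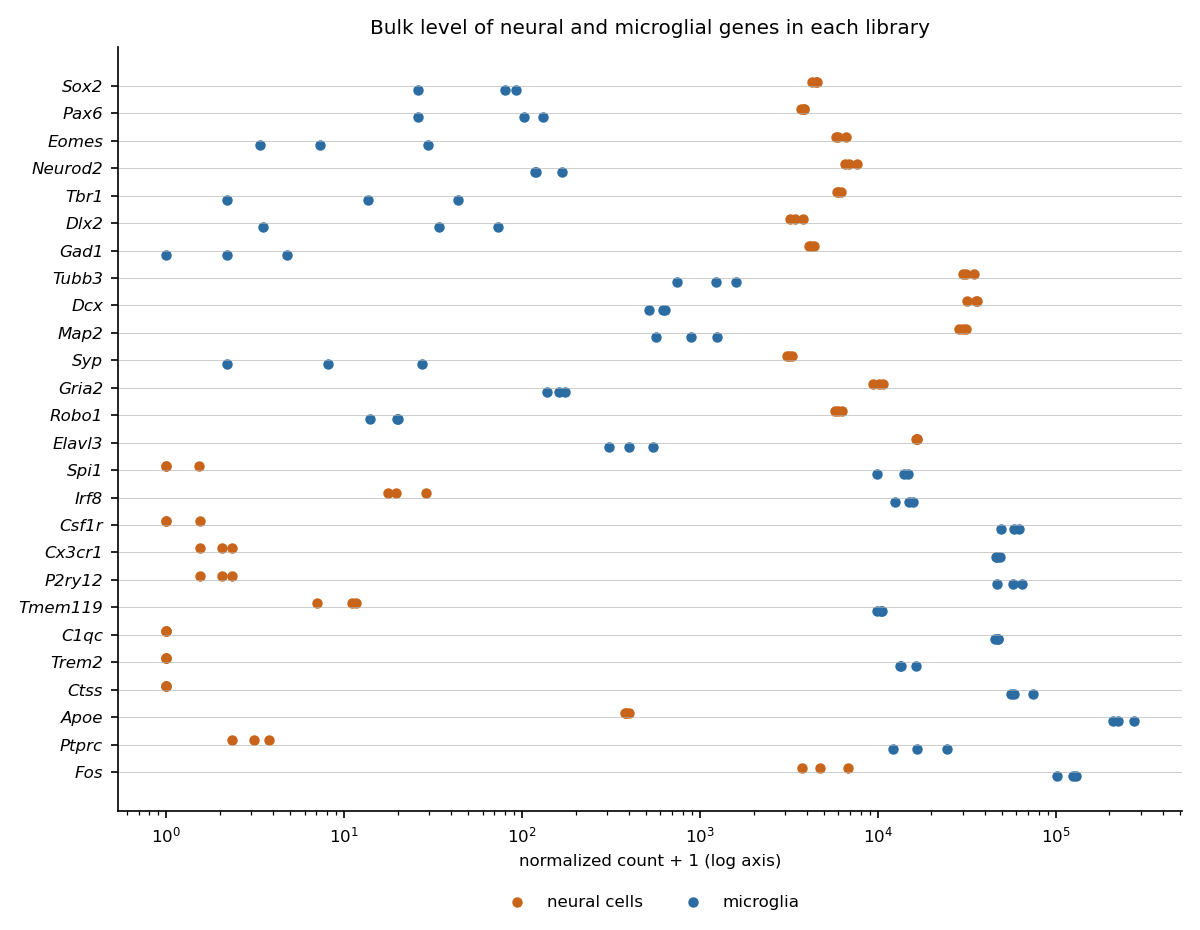
Normalized count + 1 on a log axis in each of the 3 neural (orange) and 3 microglial (blue) bulk libraries, 1 row per gene and 1 point per library. The first 14 genes are neural and the rest microglial or, for Fos, immediate early. In each row the libraries of one side all lie above those of the other.

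Levels per kilobase of exon were compared between genes within each population, since kits and the relation to exon length differed between the sides. In neural cells the highest protein-coding genes of the nuclear genome were the tubulin *Tuba1a* (64002 normalized counts per kilobase), the elongation factor *Eef1a1* (53552), *Nnat* (30823) and *Tubb2b* (30366). In microglia they were the actin-binding *Tmsb4x* (217344), *Actb* (160397), the ferritin chain *Ftl1* (158740), *Apoe* (109876) and the lysosomal protease *Lgmn* (60690). *Apoe* is the main lipid carrier of the brain.

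Radial glial genes were higher in neural cells in 18 of 22 tested members, with 1 higher in microglia, and the list median was 3.85 in bulk and 4.86 over the 15 members tested in single cells. *Sox2*, the factor that holds neural stem cells, stood at 4252, 4553 and 4516 in neural libraries against 91.5, 24.9 and 79.3 in microglia (log2 difference 6.26 ± 0.90), and *Pax6*, the cortical progenitor factor, at 3708, 3829.8 and 3854 against 131, 24.9 and 102. The libraries were separated by a wide gap for both. Genes often used to mark radial glia were less separated. *Vim*, an intermediate filament, stood at 15874, 16676 and 17824 against 3707, 3922 and 6459.7, which passed in bulk (adjusted p = 1.17e-05, limma) but was under 2-fold in single cells (log2 difference 0.75), where it just passed without Gm10800 and mitochondrial genes (1.002). *Nes*, the filament nestin, stood at 10845, 10826 and 11359 against 6598, 7221 and 5928, under 2-fold, and its single-cell difference was -0.90 ± 0.27 (-1.10 and called higher in microglia without the filter on low counts), with transcripts in 86 of 128 microglia. *Hes1*, a Notch target, stood at 815, 812 and 763 against 921, 714 and 549, with overlapping groups (adjusted p = 0.462, limma). The member higher in microglia was *Phgdh*, the first enzyme of serine synthesis, at 1433, 1502 and 1627 against 4296, 4686 and 3230.5. In single cells *Phgdh* was not called. It was called higher in microglia there with wells of any depth (-1.02), without the filter on low counts (-1.15) and without plate 3 (-1.11).

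Intermediate progenitor genes were higher in neural cells in 11 of 15 members. *Eomes*, their defining factor, had the largest difference in the list, with 5845, 5955 and 6587 against 2.38, 28.5 and 6.29 (log2 difference 9.41 ± 1.27). *Neurog2*, a proneural factor, stood at 4649.9, 4199 and 4460.3 against 90.3, 139 and 22.7. The exception was *Btg2*, an antiproliferative gene that is also an immediate early gene. It stood at 3031, 3327 and 3368 in neural cells and 64579, 53787 and 43835 in microglia (log2 difference -4.04), and it was called higher in microglia in single cells as well (-2.86 ± 0.34).

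Every neuronal list was higher in neural cells as a group. Excitatory neuron genes passed in 15 of 16 members (median 5.85), GABAergic lineage genes in 18 of 19 (6.61), genes of the presynaptic release machinery in 26 of 26 (4.94), transmitter receptors and channels in 31 of 32 (6.48), neuronal cytoskeleton in 25 of 28 (4.79) and axon guidance in 27 of 28 (6.77). These stand beside the 30.2% of all tested genes called in that direction and a median of 0.14 over all tested genes.

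*Tbr1*, the factor of deep-layer cortical neurons, stood at 5874, 5949 and 6175 against 1.19, 42.7 and 12.6, and *Neurod2*, of excitatory neurons, at 6881, 6503 and 7598 against 118, 166 and 119.6. *Dlx2*, which sets interneuron fate, stood at 3217, 3406 and 3777 against 33.3, 72.3 and 2.52. In all 3 genes every microglial library stayed below every neural one, as in 42.5% of all tested genes. The exception among excitatory genes was *Mef2c*, a factor used by neurons and by myeloid cells. It stood at 1059, 945 and 1068 in neural cells and 29839.9, 25288 and 25467 in microglia (log2 difference -4.71 ± 0.13; adjusted p = 1.31e-09, limma), and was seen in 21 of 123 and 119 of 128 single cells.

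Among cytoskeletal genes, *Tubb3* (chr8:123411424-123422015), the tubulin used to identify neurons, stood at 30178, 31328 and 34478 in neural libraries and still at 1584, 1226 and 743 in microglia, a log2 difference of 4.82 ± 0.27. Among single cells it was detected in 90 of 123 on the neural side (73.2%, with an exact 95% interval from 64.4 to 80.8) and in 1 of 128 on the microglial side (0.781%, 0.0198 to 4.28), a log2 difference of 9.41 ± 0.58. With every cell thinned to 1500 transcripts the counts were 71 and 0. *Dcx*, a microtubule protein of migrating neurons, stood at 35360.3, 31489 and 35892 against 634, 621 and 517 in bulk, a log2 difference of 5.86, and differed by 8.91 ± 0.64 in single cells. The neuronal genes *Dpysl3*, *Stmn2* and *Mapt* also had a smaller difference in bulk (5.04, 4.36 and 6.31) than in single cells (8.57, 8.04 and 8.06). *Dpysl2*, of the same collapsin response family as *Dpysl3*, went against its list. It stood at 6068, 5879 and 5865 in neural cells and 37806, 38291 and 24926 in microglia (log2 difference -2.48 ± 0.17; adjusted p = 3.56e-07, limma), whereas the single-cell difference was 0.87 ± 0.25, of the opposite sign and under 2-fold. It was called higher in the neural gate by DESeq2 (1.03, adjusted p = 0.00487), without Gm10800 and mitochondrial genes (1.13) and with cells thinned to 1500 transcripts (1.25).

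In the release machinery, the vesicle protein *Syp* stood at 3099, 3159.8 and 3286 against 1.19, 7.12 and 26.4 and the calcium sensor *Syt1* at 2864, 2630.4 and 2449 against 52.3, 90.1 and 45.3. The AMPA receptor subunit *Gria2* stood at 10629.8, 9377 and 10102 against 160.5, 173 and 137 and the NMDA receptor subunit *Grin2b* at 1178, 897 and 1529 against 23.8, 1.19 and 6.29. None of these groups overlapped, as held for 42.5% of all tested genes in this direction. *Robo1*, a receptor for Slit proteins in axon guidance, stood at 5939, 5741 and 6288 against 19.02, 13.04 and 18.9, and the ephrin receptor *Epha4* at 9033, 8612 and 9629.9 against 2.38, 55.7 and 30.2. *Nrp1*, a semaphorin coreceptor also carried by other cells, was the guidance gene higher in microglia, with 2273, 2097 and 2469 against 5097, 4006 and 5782 (-1.11 in bulk and -1.09 in single cells). Without Mi-346 its bulk difference was -0.99, just under 2-fold. In single cells its call was lost without plate 1 (adjusted p = 0.0798, edgeR), by DESeq2 (-0.99), without Gm10800 and mitochondrial genes (-0.84) and with thinned cells (-0.41). Of neural RNA-binding proteins 20 of 21 were higher in neural cells. *Elavl3*, a Hu protein of neurons, stood at 16666, 16504 and 16334 against 399, 541 and 308, and *Qk*, the exception, at 11033, 11091 and 11046 against 36280.0, 30872 and 39746, a difference of -1.68 in bulk and -1.70 in single cells.

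**Figure D3:**
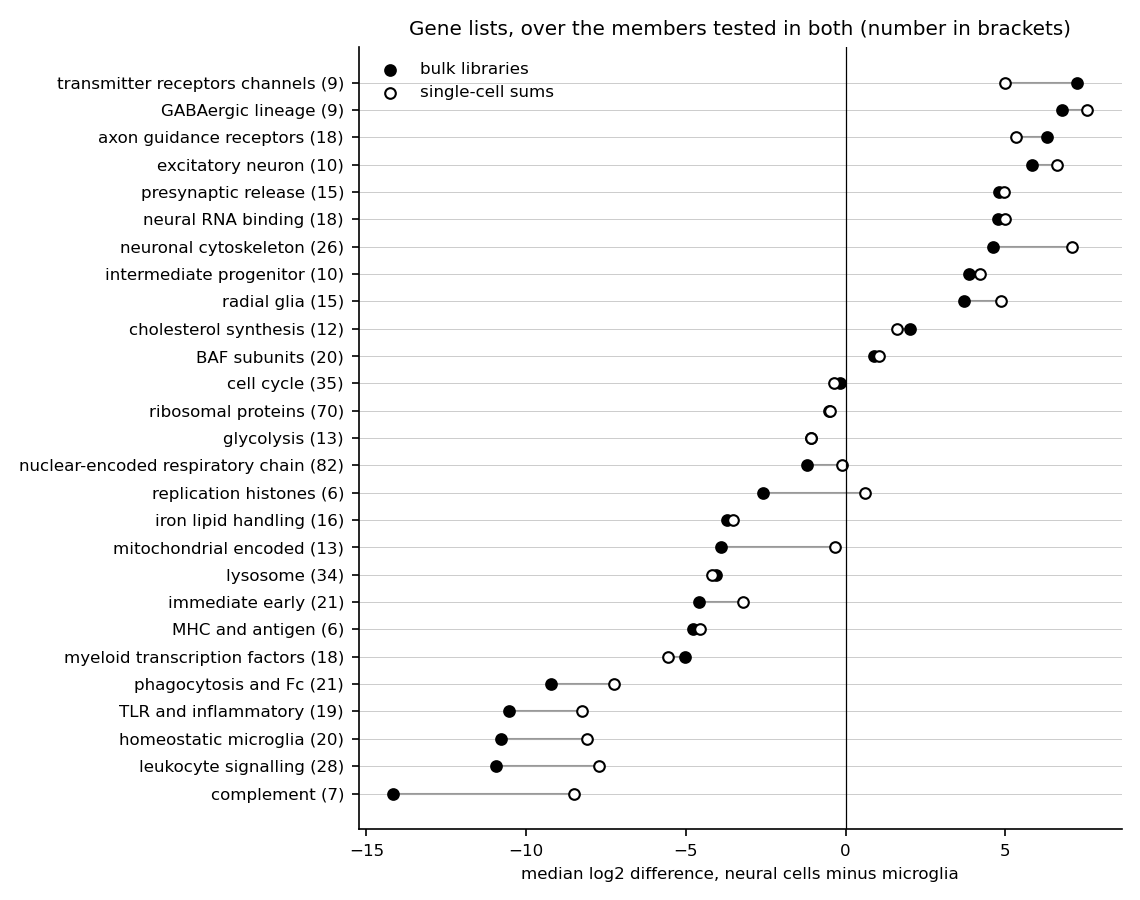
Median log2 difference, neural minus microglia, over the members of each gene list that were tested in both data types (number in brackets), in bulk (filled) and in single-cell sums (open). Mitochondrially encoded genes and replication histones show the widest gaps outside the immune lists, and neuronal cytoskeleton is further from 0 in single cells than in bulk.

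The homeostatic list of microglia was higher in microglia in 19 of 22 members (median -10.27), beside 27.5% of all tested genes. *P2ry12*, the receptor by which microglia sense nucleotides, stood at 1.34, 0.554 and 1.06 in neural libraries and 64898, 57349 and 46749.8 in microglia. *Tmem119*, a surface protein that marks microglia, stood at 10.7, 6.09 and 10.04 against 10527, 10354 and 9924. The members without a bulk call were *Sall1*, *Sall3* and *Golm1*. *Sall1*, a factor of microglial identity that neural progenitors also use, stood at 3429, 3501 and 3825 against 3449, 4358 and 2840.2, and the groups overlapped (log2 difference 0.035 ± 1.15). In single cells it was higher in microglia, with -1.88 ± 0.31 (edgeR adjusted p = 8.80e-06), in 69 of 128 against 19 of 123 cells. *Golm1* differed in the same direction in both, by -0.98 in bulk, just short of 2-fold, and by -2.09 in single cells. It passed in bulk without Mi-346 (-1.08), after quantile scaling (-1.01), by edgeR (-1.03) and by DESeq2 (-1.02).

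Of myeloid transcription factors 20 of 24 were higher in microglia (median -5.81), and all 18 tested in single cells were. *Spi1*, which encodes PU.1, stood at 0, 0 and 0.528 against 14731, 13943 and 9841, and *Irf8*, its partner, at 18.7, 16.6 and 28 against 14982, 15679 and 12532. *Runx1*, a factor of blood cell development, stood at 2.67, 6.09 and 3.699 against 4652, 5222 and 6272. In each of these genes the lowest microglial library lay above the highest neural one, as in 38.9% of all tested genes.

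PU.1, the product of *Spi1*, binds purine-rich DNA around GGAA. The letters GAGGAAGT, or ACTTCCTC on the other strand, were searched in promoters from 250 bases before to 50 bases after the gene start (RefSeq, GRCm38.p6). They occurred in 3.28% of all 27025 promoters, in 31 of 300 (10.3%, exact 95% interval 7.13 to 14.4) of genes over 10-fold higher in microglia in both data types, and in 3 of 367 (0.817%, 0.169 to 2.37) of genes over 10-fold higher in neural cells in both. The intervals cover counting error only. A promoter was listed for 300 of 389 and 367 of 493 such genes. Within the last 150 bases, from -100 to +50, it lay in 26 of the 31 (83.9%) of the microglial set, in all 3 of the neural set, in 64.1% of the promoters with a match among genes tested in both and in 61.4% of all promoters with a match. The shorter GGAAGT, which the longer letters contain, occurred in 24.1%, 34.3% (exact 95% interval 29.0 to 40.01) and 12.5% of the 3 sets. Over the 4770 promoters of genes tested in both data types the shares were 3.04% for the longer letters and 30.1% for the shorter, and the latter lies inside the microglial interval. Among paralogs divided in bulk with a listed promoter, 1 of 17 microglial members (*Inpp5d*) and 0 of 17 neural members held the longer letters.

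A few of the 31 promoters are shown, 5′ to 3′ on the strand of the gene with the matched letters in capitals, because their genes were far higher in microglia and span protease, signalling and actin functions. *Ctss* is described above. *Vav1*, a signalling protein of blood cells, stood at 0 in neural libraries and 8599, 8408 and 7496 in microglia. *Inpp5d*, a phosphatase that restrains signalling from surface receptors, stood at 24.04, 24.4 and 30.4 against 13584, 13974 and 11975. *Pik3cg*, a lipid kinase, stood at 4.01, 7.199 and 8.45 against 4927, 5058 and 3659. *Arpc1b*, of the Arp2/3 complex that branches actin, stood at 85.5, 80.8 and 97.2 against 51275, 53659.8 and 46672, while its relative *Arpc1a* differed by 0.61. A match of letters is a description and not a site of binding.
Ctss (chr3:95526536-95526835, plus strand): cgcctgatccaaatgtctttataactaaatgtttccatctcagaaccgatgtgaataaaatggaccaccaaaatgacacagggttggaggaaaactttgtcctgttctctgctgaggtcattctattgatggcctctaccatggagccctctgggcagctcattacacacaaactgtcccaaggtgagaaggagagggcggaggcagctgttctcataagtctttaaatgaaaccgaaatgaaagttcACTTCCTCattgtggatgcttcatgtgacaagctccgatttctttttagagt
Vav1 (chr17:57278850-57279149, plus strand): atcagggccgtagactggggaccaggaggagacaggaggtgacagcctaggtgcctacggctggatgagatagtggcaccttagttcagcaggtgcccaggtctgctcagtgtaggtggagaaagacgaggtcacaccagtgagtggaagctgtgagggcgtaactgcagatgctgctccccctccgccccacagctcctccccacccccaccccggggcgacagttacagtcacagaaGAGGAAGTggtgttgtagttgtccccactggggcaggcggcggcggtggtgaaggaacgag
Inpp5d (chr1:87620062-87620361, plus strand): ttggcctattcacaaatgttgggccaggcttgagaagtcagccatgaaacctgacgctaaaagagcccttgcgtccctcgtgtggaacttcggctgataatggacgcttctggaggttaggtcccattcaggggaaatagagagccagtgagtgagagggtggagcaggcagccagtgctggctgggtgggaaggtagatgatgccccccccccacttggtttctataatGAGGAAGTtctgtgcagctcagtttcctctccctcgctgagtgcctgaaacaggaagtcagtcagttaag
Pik3cg (chr12:32208610-32208909, minus strand): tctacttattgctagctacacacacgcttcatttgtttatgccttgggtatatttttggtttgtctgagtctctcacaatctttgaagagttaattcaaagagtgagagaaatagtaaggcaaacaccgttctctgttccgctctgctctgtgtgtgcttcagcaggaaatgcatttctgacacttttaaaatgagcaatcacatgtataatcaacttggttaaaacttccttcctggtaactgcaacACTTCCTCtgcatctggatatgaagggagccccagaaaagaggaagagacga
Arpc1b (chr5:145114006-145114305, plus strand): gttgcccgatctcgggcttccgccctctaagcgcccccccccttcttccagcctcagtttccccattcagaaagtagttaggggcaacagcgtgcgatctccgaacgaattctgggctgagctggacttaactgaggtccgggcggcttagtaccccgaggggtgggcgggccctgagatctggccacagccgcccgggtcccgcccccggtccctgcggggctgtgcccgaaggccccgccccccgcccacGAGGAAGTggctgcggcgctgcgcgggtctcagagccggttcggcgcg

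In these promoters the match began -2, -11, -20, -2 and 2 bases from the gene start in the order shown, where a negative position lies before the start.

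Complement genes were higher in microglia in 13 of 19 members, 2 were higher in neural cells and 4 were not called. Over all genes tested, 27.5% were higher in microglia and 30.2% in neural cells. *Serping1*, the inhibitor of the C1 proteases, stood at 441, 435 and 435 in neural cells and 0, 7.12 and 0 in microglia (log2 difference 7.77 ± 1.80; adjusted p = 0.00307, limma), and the membrane regulator *Cd46* at 100.2, 126 and 129 against 5.94, 0 and 47.8. Without Mi-343, *Cd46* did not pass (adjusted p = 0.0573, limma), nor did it by edgeR on recovered reads (0.0896). The C1q chains and the receptors *C3ar1* and *Itgam* were higher in microglia. *C3* itself was less abundant, with 17.4, 11.1 and 6.605 against 253, 494 and 769. *Cfp*, properdin, stood at 682, 626 and 645 against 389.9, 997 and 1556, and the groups overlapped. In single cells 7 members could be tested, all called higher in microglia, and neither *Serping1* nor *Cd46* was among them.

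Genes of phagocytosis and Fc receptors passed in 29 of 31 members (median -9.24), of Toll-like receptors and inflammation in 33 of 35 (-9.45) and of leukocyte signalling in 34 of 34 (-10.74). With genes without a read set at their bound, these medians were -9.14, -9.37 and -10.57. *Mertk*, a receptor for dying cells, stood at 25.4, 27.1 and 26.9 against 4053, 5138 and 9879, and *Axl*, of the same receptor family, at 641, 705 and 734 against 1790.1, 1487 and 1606. For *Axl* the bulk difference of -1.23 had an SE of 1.63 and did not pass (adjusted p = 0.529, limma), although no libraries overlapped. With only these 6 libraries in the fit the adjusted p was 0.000178 (limma), and the single-cell difference was -3.39 ± 0.58. *Il1b* had no neural read and 1088, 1434 and 1739.9 in microglia, and *Tnf* stood at 0, 0.554 and 0 against 1067, 996 and 1182. The chemokine *Ccl3*, with no neural read and 16334, 16738 and 22326 in microglia, stood well above these cytokines.

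Lysosomal genes passed in 33 of 39 members (median -3.87) and in 33 of 34 in single cells (-4.18). Unlike *Ctss*, some lysosomal proteases also had reads in neural cells, at a lower level. *Ctsb* stood at 2689.5, 2839 and 3028 against 183152, 197852 and 216031, *Ctsd* at 1382, 1468 and 1283 against 81782, 94333 and 101048, and *Lgmn* at 601, 629 and 669 against 137169, 134157 and 151624. *Scarb2* and *Mcoln1*, a lysosomal membrane protein and a lysosomal channel, stayed within 2-fold in bulk (0.31 and 0.33), although *Scarb2* was called higher in microglia in single cells (-1.75 ± 0.26). In iron and lipid handling 12 of 18 genes were higher in microglia and 3 in neural cells, beside 27.5% and 30.2% of all genes tested. *Ftl1* stood at 12971, 13755 and 12998 against 246899, 214014 and 177220.0 and *Hmox1*, which breaks down heme, at 82.8, 104 and 99.6 against 10629, 9086 and 8858, while *Tfrc*, which imports iron, was called higher in neural cells in bulk (1.19) and differed by -0.80 ± 0.33 in single cells. Of 16 members tested there, 13 were higher in microglia and 0 in the neural gate by edgeR, the 3 with a neural call in bulk included. After quantile scaling *Tfrc* was at 0.975 in bulk, under 2-fold, and the neural calls of the list numbered 1, against 2 by edgeR and 3 by DESeq2 on recovered reads.

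Antigen presentation genes passed in 17 of 22 members. *B2m*, the light chain of class I, stood at 167, 171 and 178 against 23454, 22159 and 26970.5. *Cd74*, the class II chaperone, stood at 0, 0.554 and 0.528 against 2654, 4766 and 3511, but was seen in 8 of 128 single microglia, and *H2-Aa*, a class II chain with 541, 787 and 385 in bulk microglia, in none. *H2-Q7* was called higher in neural cells at low levels, 44.1, 38.8 and 29.3 against 2.38, 0 and 27.7, but the call was lost without Mi-343 (adjusted p = 0.0586, limma), with the 6 libraries alone in the fit (0.0605), by edgeR (0.282) and by DESeq2 (0.458). Class I genes are similar enough to each other that reads may be shared among them. Genes linked to interferon passed in 19 of 24 members, beside 27.5% of all genes tested. Their summed level was 14271 to 27558 in microglia, highest in Mi-346, against 2362 to 2418 in neural cells. Only 1 member could be tested in single cells, so this list rests on bulk.

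Other cells were looked for in both populations. Markers of macrophages at the brain borders were higher in the microglial libraries in 10 of 11 members, with a summed level of 43199 to 50143 against 147 to 168, and 4 of the 12 listed had no neural read. *Mrc1* stood at 10241, 7987 and 10492 in microglia and was seen in 47 of 128 single cells, whereas *F13a1*, at 6158, 5938 and 7321 in bulk, was seen in 4. Markers of monocytes and neutrophils passed in 9 of 11 members, with sums of 3769, 3214 and 11156, so that Mi-346 stood apart, and 7 of the 12 listed had no neural read. *Ccr2* in microglia stood at 1113, 1067 and 4333 and was seen in 7 of 128 single cells. Red blood cell genes summed to 9176 to 11988 in neural libraries and 2013 to 2452 in microglia, with 4 of 11 members higher in neural cells and 1 (*Epor*) in microglia. *Epor* was not called without N-340, N-346, Mi-343 or Mi-346 (adjusted p from 0.0584 to 0.0702, limma). The hemoglobin chain *Hbb-bs* stood at 4086, 4560.2 and 6030.1 against 557, 821 and 656. Endothelial markers were higher in microglia in 7 of 10 members at summed levels of 2716 to 3157 against 164 to 214, mural markers higher in neural cells in 4 of 9 (2845 to 3114 against 537 to 679), and fibroblast markers in 3 of 5. Of platelet markers 6 of 8 were higher in microglia and 1 in neural cells. The counts of red blood cell, mural and fibroblast markers stand beside 30.2% and 27.5% of all genes tested, and nothing is read from them about these lists. What part these cells had in the results was not tested.

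In 54 pairs of related genes tested in bulk, 23 were divided, with one member called higher in microglia and its relative in neural cells. The pairs were listed with the member known from microglia first and with earlier results known, so these counts are a description, beside 30.2% and 27.5% of single genes called in each direction. In single cells both members could be tested in 12 of those 23 pairs, and 10 were divided there too. Several belong to the actin machinery. Of the profilins, which feed actin monomers to filaments, *Pfn1* stood at 3465, 3534 and 3723 in neural cells and 72389, 60452 and 56429.9 in microglia and *Pfn2* at 7367, 7619 and 7298 against 651, 281 and 535. Of the WAVE complex subunits, *Nckap1l* stood at 2.67, 23.3 and 8.72 against 10457, 9343 and 7777 and *Nckap1* at 7249.9, 7234 and 7373 against 112, 337 and 102. *Cyfip1* and *Cyfip2*, of the same complex, went with microglia (-4.36 in bulk, -3.70 in single cells) and neural cells (4.54 and 4.39) respectively. No libraries of the populations overlapped in any of these 6 genes, as in 42.5% of all tested genes toward neural cells and 38.9% toward microglia.

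The same held for kindlins, which activate integrins, with *Fermt3* at 42.7, 46.5 and 38.04 against 12429.7, 10165 and 9042 and *Fermt2* at 2055, 2078 and 2063 against 63, 119.8 and 35.3. Membrane fusion was divided as well, between *Vamp8* (-8.24) and *Vamp2* (2.57; not called in single cells without plate 2, edgeR adjusted p = 0.0811) among vesicle SNAREs and between *Snap23* (-2.53) and *Snap25* (4.58) among their target SNAREs. Among tubulins *Tubb6* stood at 61.4, 52.6 and 53.1 against 3606, 2859 and 2937, opposite to *Tubb3*. Tubulin genes resemble each other, and reads shared among them may be split. *Tmsb4x* and *Tmsb10*, which bind actin monomers, were divided in single cells only. In bulk *Tmsb10* stood at 9732, 9017 and 10627 against 10911, 9043 and 9869, with overlapping groups and a difference of -0.021 ± 0.17. In single cells it differed by 3.11 ± 0.35 (edgeR adjusted p = 1.93e-08), and was seen in 107 of 123 and 60 of 128 cells.

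**Figure D4:**
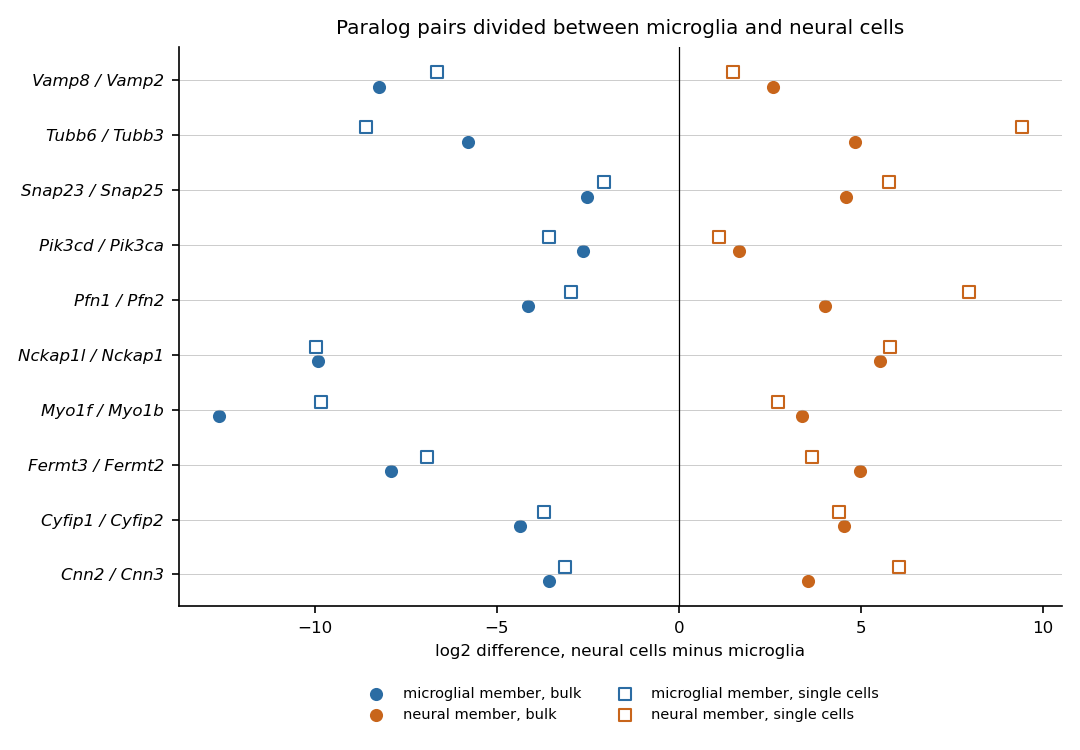
Log2 difference, neural minus microglia, of both members of the 10 paralog pairs that were divided in bulk (circles) and in single cells (open squares). The member named first lies left of 0 and the member named second right of 0 in every pair.

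Of 39 pairs, 5 had the ligand higher in neural cells and the receptor in microglia, 7 the reverse, 12 both in neural cells and 8 both in microglia, beside 30.2% and 27.5% of single genes called in each direction, and nothing is read from these counts. From neural cells, *Cx3cl1* (fractalkine) stood at 315, 333 and 349 against 46.4, 0 and 1.26 in microglia, and its receptor *Cx3cr1* at 1.34, 0.554 and 1.06 against 46150.5, 46458 and 48423. *Cx3cl1* was seen in 1 cell of each gate, so single cells could not test it. *Cd200*, which restrains myeloid cells, stood at 1955, 2073 and 1839 against 63, 90.1 and 133, and its receptor *Cd200r1* at 0 in neural libraries and 384, 281 and 327 in microglia. *Tgfb2* stood at 411, 413 and 398 against 8.32, 17.8 and 61.7, and the receptor *Tgfbr1* at 5981, 5607 and 5799 against 22109, 22313 and 20186, which single cells also called higher in microglia (-2.90 ± 0.23). Each of these genes had libraries that did not overlap, as in 42.5% of all tested genes toward neural cells and 38.9% toward microglia.

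From microglia, *Igf1*, a growth factor, stood at 20.03, 27.7 and 18.5 against 2642, 2869.8 and 2076 and its receptor *Igf1r* at 4781, 4209 and 5338 against 833, 953 and 1630.3. *Sema4d* stood at 832, 848 and 930.2 against 2488, 3050.0 and 4415 and its receptor *Plxnb1* at 10179.8, 10132 and 10932 against 24.96, 87.8 and 49.1, and both were called the same way in single cells (-3.86 and 7.91). The bulk call on *Sema4d* was lost on leaving out any library but Mi-340 (adjusted p from 0.0537 to 0.0827, limma). Of the receptors of *Apoe*, *Lrp8* (8401, 7812 and 9392 against 27.3, 202 and 151) and *Vldlr* (1735, 1642 and 1804 against 0, 9.49 and 0) were higher in neural cells, and *Lrp1* did not differ past the threshold in bulk (0.061 ± 0.35) but was higher in microglia in single cells (-1.79 ± 0.28). *Grn* (progranulin) stood at 748, 851 and 924 against 28234, 32433 and 35088. Its receptor *Sort1* was higher in neural cells in bulk (3.08 ± 0.53) and not called in single cells (0.57 ± 0.40). The ligand *Csf1* was higher in microglia, along with its receptor, at 254, 242 and 292 against 4921, 5826 and 5095.

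Cell cycle genes were mostly not called, with 6 of 39 higher in neural cells and 9 in microglia, beside 30.2% and 27.5% of all genes tested, and a median of -0.38. *Mki67*, a mark of dividing cells, stood at 8450.5, 7625 and 9757 against 5159, 7323 and 9734, with overlapping groups (adjusted p = 0.367, limma). In single cells it differed by -0.53 ± 0.40 and was not called (edgeR adjusted p = 0.292), but was called higher in microglia without plate 3 (-1.17, adjusted p = 0.00147), and the sign turned without plate 2 (0.58) and by DESeq2 (0.10), neither a call. The inhibitors of the cycle were divided: *Cdkn1a* was higher in microglia (-4.51), and *Cdkn1b* (3.42) and *Cdkn1c* (3.19) in neural cells. The single-cell call of *Cdkn1b* (1.59) was lost without plate 1 (1.15, edgeR adjusted p = 0.12). *Ccnd2*, a cyclin D, was higher in neural cells by 1.66 in bulk and by 5.09 in single cells.

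Cholesterol synthesis was higher in neural cells in 17 of 22 members (median 1.92) and in 8 of 12 in single cells (1.59). Over all genes tested the shares in that direction were 30.2% in bulk and 21.7% in single cells. *Ebp*, a late enzyme of the pathway, went the opposite way, 239, 204 and 253 against 1198, 1198 and 1614, and did so in single cells (-2.93 ± 0.52). Glycolysis was mixed, with 4 members higher in neural cells and 10 in microglia of 22, beside the same 30.2% and 27.5%. Within it, isoforms were divided between *Aldoa* (-2.93) and *Aldoc* (2.11) and between *Pfkl* (-1.09) and *Pfkm* (3.55).

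BAF complexes, which remodel chromatin and exchange subunits as neurons mature, had 14 of 26 subunits higher in neural cells and 2 in microglia in bulk, beside 30.2% and 27.5% of all genes tested. In single cells 11 of 20 were called higher in the neural gate and 0 in the microglia gate by edgeR, beside 21.7% and 21.4% of all genes tested there. The largest differences were in subunits of the neuronal form, with *Actl6b* at 2381, 2388 and 2350.5 against 143, 61.7 and 51.6, *Dpf1* at 3308, 3120.5 and 3338 against 73.7, 125 and 146, *Dpf3* at 6.58 and *Ss18l1* at 3.93, and in *Smarcd3* (2986, 2922 and 3068 against 49.9, 114 and 7.55). *Actl6b* passed only with all libraries or without Mi-340 (adjusted p otherwise from 0.0656 to 0.0761, limma). The core subunits *Smarca4* and *Smarcc1* differed by less than 2-fold in bulk (0.98 ± 0.10 and 0.60 ± 0.14), and *Smarca4* passed in single cells (1.33 ± 0.28) and, at 1.01 and 1.07, without N-343 or Mi-343 and, at 1.44, after quantile scaling. Without Gm10800 and mitochondrial genes *Smarcc1* was at 1.01 in single cells. Both subunits called higher in microglia in bulk, *Smarcd2* (588, 613 and 564 against 1405, 1909 and 956; not tested in single cells) and *Bcl7b* (-1.17; -0.60 ± 0.50 and not called in single cells), have relatives, *Smarcd1* (3.26) and *Bcl7a* (3.10), that were higher in neural cells. *Smarcd2* did not pass without N-346 or Mi-343 (adjusted p = 0.0502 and 0.0732, limma).

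Immediate early genes, which cells switch on within minutes of a stimulus or stress, were higher in microglia in 20 of 22 members in bulk (median -4.62) and in 20 of 21 in single cells (-3.22). *Fos* stood at 3743, 4731 and 6803 against 125450.0, 129272 and 101542, and *Atf3* at 224, 249 and 288 against 56827, 57865 and 55693. *Junb* stood at 544, 576 and 691 against 81015, 71218 and 25429.5, with Mi-346 well below the other two. The list summed to 713450 to 1004150 in microglia, lowest in Mi-346, and to 75294 to 92849 in neural cells. In single cells *Atf3* was seen in 5 of 123 and 125 of 128 cells.

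Genes of the mitochondrial genome, which encode part of the respiratory chain, were called in bulk and not in single cells. All 13 of its protein-coding genes were called higher in microglia in bulk with the deposited scaling (median -3.90), and after quantile scaling 11 were, *mt-Nd2* was at -0.85 and *mt-Co1*, a subunit of complex IV, was called higher in neural cells (1.05, from -2.61). In single cells 0 of 13 were called by edgeR (median -0.33; 3 at an unadjusted p under 0.05, 0 by DESeq2). *mt-Cytb*, a subunit of complex III, stood at 75236, 77369.6 and 75347 against 2832850.0, 1837070.0 and 1541380.0, a log2 difference of -4.72 ± 0.25. In single cells its difference was -0.087 ± 0.26 (edgeR adjusted p = 0.815). The genes also differed among themselves in bulk, from -2.07 for *mt-Nd2* to -6.10 for *mt-Nd3*. Summed transcripts of these genes in single cells ran from 64023 to 89920 CPM (counts scaled to a common total) in the neural gate and from 53058 to 102990 in the microglia gate, which overlapped. Nuclear genes of the respiratory chain followed in part: 54 of 94 were higher in microglia in bulk (median -1.16), and 0 of 82 were called in single cells by edgeR (median -0.10; 17 at an unadjusted p under 0.05, 0 by DESeq2). Over all genes tested 27.5% were higher in microglia in bulk. In single cells 21.7% of all genes tested were higher in the neural gate and 21.4% in the microglia gate. Ribosomal protein genes had nearly equal medians in both, -0.51 and -0.50. Replication-dependent histones, whose messages lack a poly(A) tail, were higher in microglia in 19 of 35 members in bulk, beside 27.5% of all genes tested. In single cells 2 of 6 were higher in microglia and 2 in the neural gate, and nothing is read from these single-cell counts.

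Bulk differences also followed transcript length. From the shortest to the longest of 5 groups by exon length, cut so that all protein-coding genes tested in bulk were divided equally, the median over the genes tested in both data types moved from -1.02 to 0.74 in bulk and from -0.25 to 0.28 in single cells. In the shortest group of all protein-coding genes tested in bulk, 17.0% were higher in neural cells and 40.2% in microglia, and in the longest group 49.1% and 12.2%. By class, 34.2% of protein-coding genes were higher in neural cells and 23.1% in microglia, while processed pseudogenes had 8.59% and 49.6%, antisense genes 18.9% and 41.2%, and genes awaiting experimental support (TEC) 10.6% and 49.0%. Without strand information, reads of a gene and its antisense partner cannot be told apart, and whether the counting used strand is not given in the sources used here. By GC content, over the genes tested in both, the median moved less, from -0.054 in the lowest of 5 groups to 0.30 in the highest in bulk and from 0.077 to -0.032 in single cells.

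**Figure D5:**
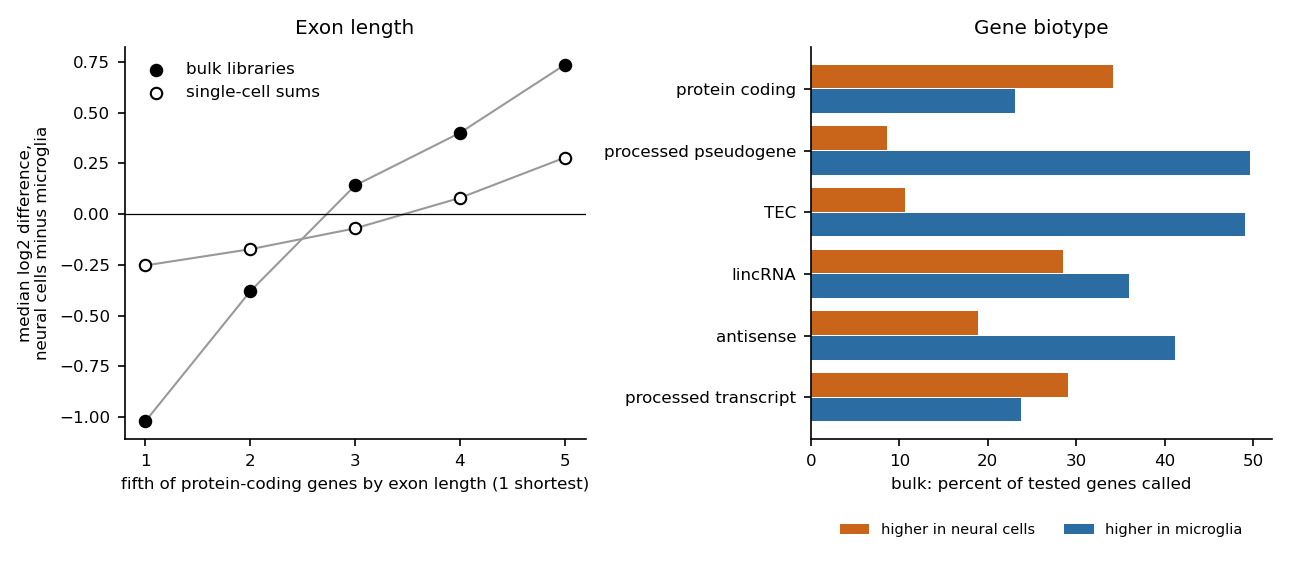
Left, median log2 difference, neural minus microglia, in 5 groups by exon length (983 to 1550 genes each) of protein-coding genes tested in both, in bulk (filled) and single cells (open). Right, percent of tested genes of each biotype called higher in neural cells (orange) or microglia (blue) in bulk. The bulk median rises from -1.02 to 0.74 with length, and processed pseudogenes and TEC genes are called toward microglia in about equal shares, 49.6% and 49.0%.

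The 25 genes called in opposite directions fell into groups of different kind, and many of their single-cell calls were lost when a plate was left out. Of the 14 higher in neural cells in bulk, the single-cell call was kept by 4 of 11 still tested without plate 1, 3 of 12 without plate 2 and 14 of 14 without plate 3 (edgeR). Of the 11 higher in microglia in bulk it was kept by 1 of 6, 4 of 8 and 8 of 11. By DESeq2 on the single-cell sums 5 of the 14 and 8 of the 11 kept it. After quantile scaling the bulk call was lost by *Clcn5*, *Man2a2*, *Mef2d*, *Snd1* and *Sun2*, and that of *Sun2* also by edgeR and DESeq2. The 14 called higher in neural cells in bulk and in microglia in single cells were all protein-coding, as were 97.8% of all genes tested in both. Their median exon length was 6240 bases against 4914 over all genes tested in both, and their bulk differences ran from 1.04 to 2.21. *Zdhhc5*, a palmitoyltransferase, stood at 2126, 2185 and 2268 against 365, 432 and 669 in bulk (2.21 ± 0.36) and differed by -1.26 ± 0.37 in single cells. *Pacs2*, a sorting protein, stood at 5112, 5010.4 and 5128 against 1215, 993 and 1189.7, and *Mef2d*, a relative of *Mef2c*, at 2862, 2669 and 2866 against 874, 1074 and 1915, with single-cell differences of -2.16 and -2.18. *Pigo*, *Ppp6r1*, *Fam129b*, *Fbrs*, *Man2a2*, *Lasp1*, *Dcp2*, *Sp1*, *Sun2*, *Snd1* and *Clcn5* were the others. Without Mi-340, *Pigo* and *Man2a2* no longer passed in bulk (adjusted p = 0.0652 and 0.119, limma). Without that library *Mef2d* was at 0.96 and *Sun2* at 0.89, both under 2-fold. *Sun2* was not called without any 1 of the other libraries except Mi-346 either (adjusted p from 0.0555 to 0.0636), nor *Clcn5* without any of the neural libraries or Mi-343 (0.0532 to 0.0927), nor *Snd1* without N-346 or Mi-343 (0.0606 and 0.0596). *Man2a2* also lost its call without any of the neural libraries or without Mi-343 (adjusted p from 0.0555 to 0.0801), and in the fit with the brain as a block (adjusted p = 0.0503).

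Of the 11 called the reverse way, 6 were protein-coding, 7 were in the shortest group by exon length and the median length was 1151 bases. Over all 6076 genes tested in both, 97.8% were protein-coding and 1045 were in the shortest group. *Mir99ahg*, the host RNA of a microRNA cluster, stood at 406, 406 and 324 in neural libraries and 1942, 2207 and 4886 in microglia, with a difference of -2.87 ± 0.38 in bulk and 1.98 ± 0.29 in single cells. *Pfdn1*, a prefoldin subunit, stood at 892, 949 and 959 against 2272, 1987 and 1729 (-1.09 in bulk and 1.10 in single cells). The rest were *Gm26764*, *Rasl2-9*, *Gm42970*, *4632427E13Rik*, *Gm37349*, *Gm8797*, *Gm10282*, *Gm9844* and *Psmd5*. *4632427E13Rik* was high in Mi-346 (407, 598 and 2702). Without N-343, *Gm10282* and *Gm9844* fell under 2-fold in bulk, without N-346 *Gm37349* did not pass (adjusted p = 0.0577, limma), and without Mi-340 *Pfdn1* and *Psmd5* fell under 2-fold (-0.99 and -0.84). With the plate as a block *Gm10282* was at 0.90 in single cells, under 2-fold.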

How the data were processed

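RNA was measured in 6 bulk libraries, 3 of neural cells and 3 of microglia at E14.5, and in single cells of wild-type brains from gates for the same populations, whose markers differed in part. The submitters' processing notes name BWA 0.6.2-r126, STAR, featureCounts, DESeq2 and mm10, without roles here. Per the labels and values, the authors deposited the bulk data as normalized signal, reads per gene divided by 1 factor per library, as 100% of 124078 low values were whole reads within 0.01 once that factor was removed. The deposited single-cell values are expected counts of transcripts, corrected by the authors for shared molecular identifiers.

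Bulk values were tested by limma (3.58.1, R 4.3.3) with a trend on log2(value + 1), with all 12 bulk libraries in 1 fit, over genes with a mean of at least 10 in the 6 libraries. The parts of the study used here name no test for this comparison. Single-cell transcripts were summed per gate and plate over cells with more than 1500 transcripts and tested by edgeR (4.0.16, quasi-likelihood, TMM, filterByExpr) with all 4 gates in 1 fit. p-values were adjusted by Benjamini-Hochberg over all genes tested. A gene was called at an adjusted p under 0.05 and over 2-fold. Named genes were the 15 largest in each direction called over 10-fold in bulk, not overlapping and called alike in single cells, up to 10 called in opposite directions each way, and members of lists. The other genes named were chosen after their values were seen, as were the letters searched in promoters. The members and lists were chosen with earlier results of these data known. Of 53465 bulk genes 53360 had a GENCODE entry on GRCm38, and 20967 of 21548 single-cell symbols matched. A few genes that these rules name are not reported here. Doublets were not called.

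Same-numbered libraries were read as pairs from the same brain, since the study describes collecting the populations together, and their deviations from the group means correlated at 0.0485, 0.0206 and 0.0048. Those of libraries with different numbers correlated from -0.0376 to 0.0269. The main fit did not use the pairing, which entered only as a block among the alternatives. Cell number and RNA per cell are not in the values. Exact intervals of shares are Clopper-Pearson at 95%, for counting error only. The labels do not say that libraries came from separate litters, so p-values measure the spread between these samples. On simulated data with known changes, the bulk fit called 24 of 100 genes changed 3-fold and 72 of 100 changed 20-fold, and the single-cell fit 37 and 100 of 100. In the single-cell simulation 96 of the 100 genes changed 3-fold could be tested. All its genes were given the same dispersion, so its shares need not hold for the real single-cell comparison. Alternatives were the pseudocount, the minimum, scaling, edgeR (4922 and 5333 calls) and DESeq2 (1.42.0) on the recovered reads, the replicate number as a block, and leaving out each library.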

Additional observations from a re-analysis of the deposited data

How the results depend on the processing

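Bulk counts of genes higher in neural cells and in microglia (5649 and 5132) stayed within 1.5 times under another pseudocount, minimum or scaling, by edgeR or DESeq2 on recovered reads, with the 6 libraries alone, and without any 1 library (4914 to 5533 and 4472 to 5003). With the brain as a block they were 5578 and 5046, and among the genes named the block took the bulk call from *Man2a2* and from no other. Over 10-fold they were 3351 and 2762, and with protein-coding genes only 3348 were higher in microglia. Quantile scaling moved the median of all genes from 0.14 to -0.13, with 5424 and 5863 calls, and TMM scaling in edgeR moved it to -0.014. In single cells (1343 and 1326) the counts were 2517 and 2510 without a filter on low counts, 291 and 297 with cells thinned to 1500 transcripts, 564 and 479 over 10-fold, and 794 to 1942 and 893 to 1927 without 1 plate. The block for the plate gave 1362 and 1327 and took the call from *Gm10282* alone among the genes named. Leaving out Gm10800, which held more transcripts on plate 3, and mitochondrial genes gave 1984 and 1323. Over 10-fold in both data types, 493 and 389 genes were called the same way and 0 and 0 the other way. Genes higher in neural cells in bulk and in microglia in single cells (14) numbered 25 without plate 3, 8 without Gm10800 and mitochondrial genes, 5 by DESeq2 and 9 after quantile scaling, and the reverse (11) numbered 33 without Gm10800 and mitochondrial genes. These overlap alternatives were chosen after seeing the data. The cause of these shifts was not tested, except that thinning leaves fewer transcripts. Among 194 genes examined in bulk and 159 in single cells, *mt-Co1* reversed, after quantile scaling (-2.61 to 1.05), and no other called gene did. Single-cell calls were lost by 14 genes under DESeq2, 14 without plate 1 and 14 without plate 2, and bulk calls by 4 to 10 without 1 library. With thinned cells 76 genes could be tested. Small differences are limited by 3 libraries a side, and single cells by depth, since 6202 genes could be tested.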
